A study of Mus musculus with 6 samples.

Results

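Imprinted genes are genes transcribed mainly from the copy inherited from the mother or mainly from the copy inherited from the father. The set described here is a list of 38 mouse imprinted genes in 18 clusters, and a gene of the list was included when its Ensembl identifier had a row in the authors' deposited table and the symbol in GENCODE M21. That held for 31 of the 38 genes, out of 22432 genes in the table, and each of the 18 clusters kept at least 1 gene. Airn, Meg3, Rtl1, Peg3, Peg10, Snrpn and Snurf were not analysed here. The cells were male mouse germline stem cells, the cultured counterparts of the cells that maintain sperm production. Cells sorted as CDH1+/THY1+ were set against cells sorted as CDH1-/THY1+, where CDH1 is the adhesion protein E-cadherin and THY1 a surface glycoprotein used to enrich germline stem cells. Each population had 3 samples, from the cultures RP7, RP5 and WT1 at passage 6 to 8 on DR4 mouse embryonic fibroblast feeders. The age labels were 8 weeks for RP7, 19 days for RP5 and 5 weeks for WT1, and the strain label was OCT4/GFP; Dox-OCT4 for RP7 and RP5 and C57BL/6 for WT1.

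Imprints are DNA methylation marks that are laid down in the germ line, differently in sperm and egg precursors, and then copied through the divisions of the body's cells. At most imprinted clusters the mark is placed in the oocyte, and at a few, among them Igf2-H19, Dlk1-Meg3 and Rasgrf1, it is placed in male germ cells. Male germline stem cells therefore descend from cells in which the parental marks had been erased and replaced by paternal ones, whereas fibroblasts carry the marks of both parents. Many imprinted genes act in growth control of the embryo and placenta, and embryonic fibroblasts are a well-known source of transcripts such as H19, Igf2 and Dlk1.

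The values are those of the authors' comparison by DESeq2, which gives for each gene a mean normalised count over all 6 libraries and a log2 fold change, positive where CDH1+/THY1+ cells were higher than CDH1-/THY1+ cells. A value written with ± is that log2 fold change with the authors' standard error, also after "rose by" and "fell by". The table holds no value per library, so levels in each sample, the spread within each population and the depth per sample are not given. The direction rests on how the table was named. Cdh1 was not analysed here, so no value checks that direction. A gene is called when its adjusted p-value in the authors' deposited table is under 0.05. Intervals at 95% are normal intervals from that standard error, and they are on a scale that the authors' test appears to have shrunk towards 0, since no standard error in the table exceeds 0.639. In bulk RNA, fewer cells of a type and less RNA per cell cannot be told apart.

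Imprinted genes moved in both directions between the populations. Of the 31 genes, 10 were called by the authors' deposited test, 7 higher and 3 lower in CDH1+/THY1+ cells. That is 32.3% of them, close to the 33.5% called among all 19211 genes with an adjusted p-value (17.1% higher and 16.4% lower). The imprinted genes had a median mean count of 447, beside 97.5 for all genes. At a mean count of at least 100, 34.8% of 23 imprinted genes were called, beside 44.3% of all 11133 tested genes. The higher genes were Sgce, Phlda2, Impact, Rian, Gnas, Grb10 and Kcnq1ot1, and the lower genes were Dlk1, Ascl2 and Inpp5f. They lie in 7 of the 18 clusters. The median log2 fold change of the 31 genes was 0.17 (quartiles -0.12 and 0.70), beside 0.01 (quartiles -0.41 and 0.47) for all genes, and 19 genes lay above 0 and 12 below. A stricter adjustment for dependent tests (Benjamini-Yekutieli) left 4 of the 10 calls, those of Sgce, Impact, Dlk1 and Inpp5f.

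**Figure D1:**
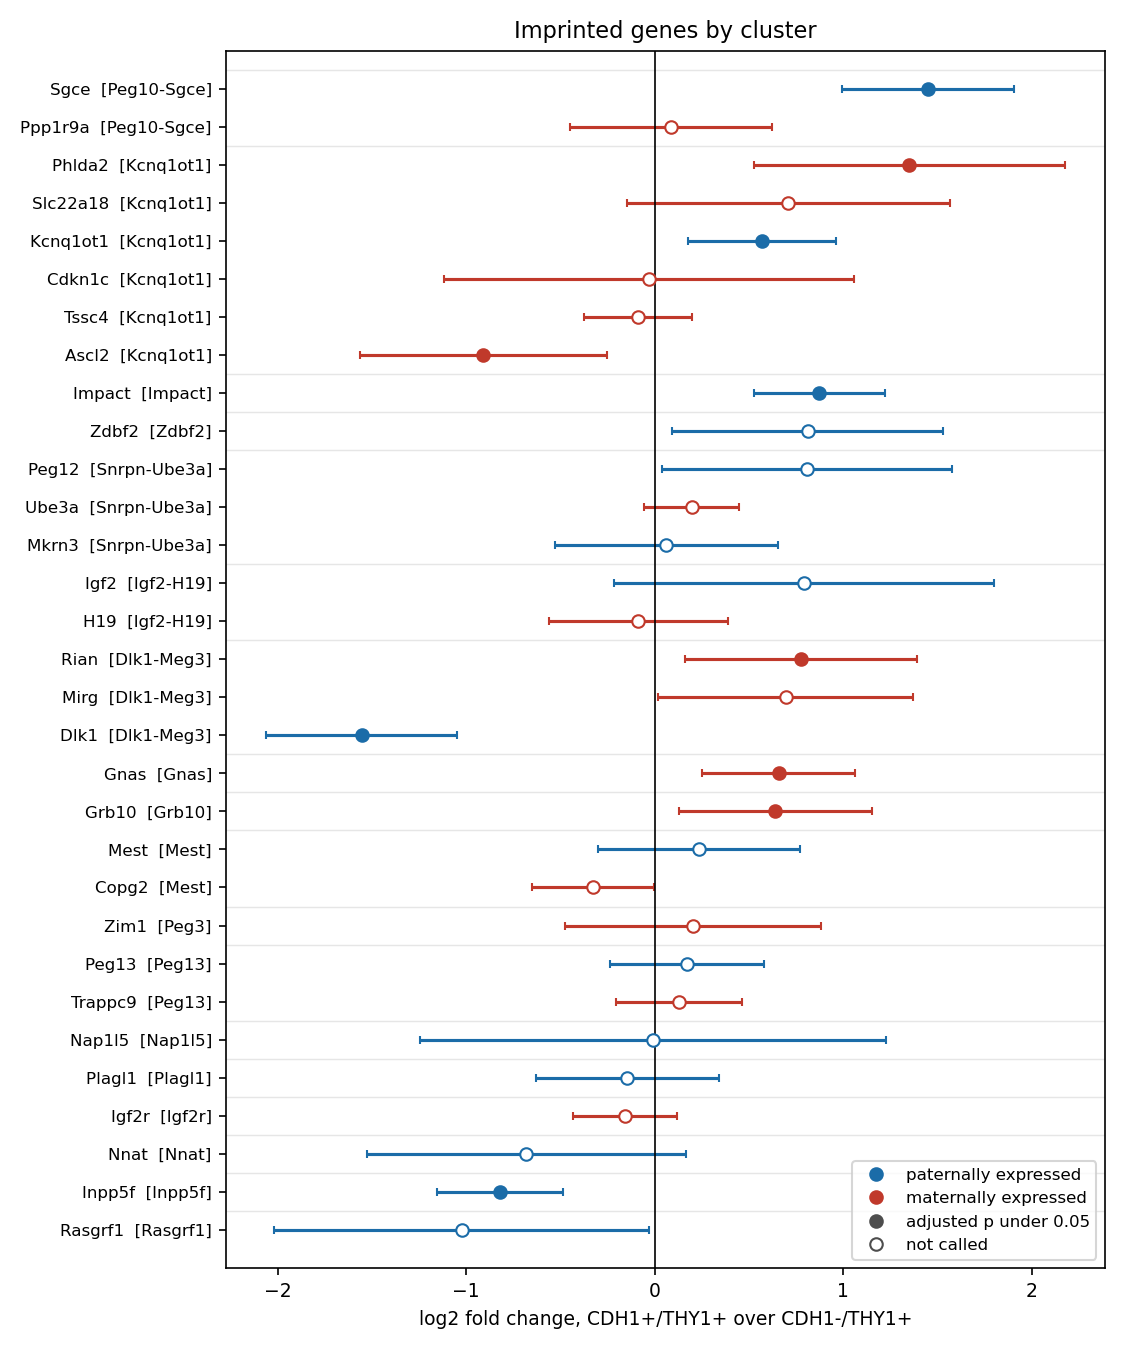
Fold change of each of the 31 imprinted genes on the log2 scale, positive where CDH1+/THY1+ cells were higher, with its 95% interval, grouped by cluster (name in brackets). Blue marks paternally and red maternally expressed genes, and filled points are the 10 called genes. Dlk1 lies lowest at -1.55 and Sgce highest at 1.45, with points on both sides of 0 in the Dlk1-Meg3 and Kcnq1ot1 clusters.

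By expressed parental allele the counts were as follows. Of 15 paternally expressed genes with a row, 3 rose and 2 fell (33.3% called, beside 33.5% of all genes), with a median of 0.17. Of 16 maternally expressed genes, 4 rose and 1 fell (31.25% called), with a median of 0.16. Without the genes whose imprinting is limited to few tissues or transcripts, the medians were 0.45 for maternally and 0.20 for paternally expressed genes. The genes were also sorted by the germ line in which the cluster's methylation is laid down. In clusters methylated in male germ cells 1 of 6 genes was higher and 1 lower (33.3% called, median 0.30). In clusters methylated in the oocyte 6 of 24 were higher and 2 lower (33.3% called, median 0.15). Zdbf2, whose locus carries marks of both kinds, was left out of that split.

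Start sites of the imprinted genes can be read from RefSeq, whose promoter windows (build GRCm38.p6, from 250 bases before to 50 bases after a start) matched 25 of the 31 genes with 36 windows. Many imprinted promoters are rich in CpG, the dinucleotide that carries DNA methylation. The member windows had a median of 17 CpG, beside 7 in all 32851 windows, and ranged from 0 at Rian to 48 at Ppp1r9a. The hexamer TGCCGC is the known binding sequence of ZFP57, the zinc finger protein that keeps imprints when it is methylated. It was searched on both strands (TGCCGC or GCGGCA). It was found in 9 of the 25 genes (36.0%), and in 13.1% of all 27025 genes with a window. By window the shares were 27.8% of the 36 member windows and 11.6% of all windows. The hexamer itself holds a CpG, and the part of the higher CpG content in this difference was not tested. The 9 genes were Zdbf2, Nnat, Mest, Copg2, Nap1l5, Zim1, Igf2, Plagl1 and Grb10. Of those 9 genes 1, Grb10, was called, beside 8 of the 25 genes with a window and 33.5% of all genes; with so few genes nothing is read from this count. Zfp57 was not analysed here. The windows with the most copies are shown next, 5′ to 3′ on the strand of the gene, with each hexamer in capitals.
Mest, chr6:30737800-30738099, plus strand: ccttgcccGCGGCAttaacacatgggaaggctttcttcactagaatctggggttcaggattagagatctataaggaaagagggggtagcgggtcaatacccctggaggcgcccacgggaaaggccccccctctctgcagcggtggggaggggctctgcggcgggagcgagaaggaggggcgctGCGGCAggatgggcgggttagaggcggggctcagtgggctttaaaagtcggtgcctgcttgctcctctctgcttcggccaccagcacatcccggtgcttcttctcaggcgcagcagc
Nap1l5, chr6:58907077-58907376, minus strand: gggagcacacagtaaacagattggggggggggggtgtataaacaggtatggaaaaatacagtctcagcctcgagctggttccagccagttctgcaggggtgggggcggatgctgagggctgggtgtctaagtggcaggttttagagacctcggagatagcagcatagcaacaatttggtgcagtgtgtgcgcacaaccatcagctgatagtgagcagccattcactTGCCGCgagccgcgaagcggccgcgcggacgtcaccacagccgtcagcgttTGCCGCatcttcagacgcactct
Zdbf2 (upstream start), chr1:63200108-63200407, plus strand: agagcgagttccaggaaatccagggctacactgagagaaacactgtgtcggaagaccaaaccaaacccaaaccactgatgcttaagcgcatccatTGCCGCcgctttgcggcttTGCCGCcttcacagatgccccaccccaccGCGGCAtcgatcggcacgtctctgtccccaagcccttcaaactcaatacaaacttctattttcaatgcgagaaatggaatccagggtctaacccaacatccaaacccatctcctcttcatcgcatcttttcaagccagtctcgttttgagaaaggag
The Mest and Nap1l5 windows held 2 copies each and the Zdbf2 window held 3.

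Of the 8 called genes with a window, 7 had no hexamer in it. Of these, Dlk1, Inpp5f and Phlda2 are shown with every CpG in capitals, because Dlk1 and Inpp5f kept their calls under the stricter adjustment and Phlda2 had the highest fold change of the called genes with a window.
Dlk1, chr12:109452573-109452872, plus strand: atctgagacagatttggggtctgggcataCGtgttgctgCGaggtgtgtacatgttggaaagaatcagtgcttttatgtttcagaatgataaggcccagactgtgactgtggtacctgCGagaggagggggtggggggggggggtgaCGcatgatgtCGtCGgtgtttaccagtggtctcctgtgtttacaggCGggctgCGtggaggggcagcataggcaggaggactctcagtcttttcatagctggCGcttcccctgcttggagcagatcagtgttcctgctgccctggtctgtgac
Inpp5f, chr7:128611115-128611414, plus strand: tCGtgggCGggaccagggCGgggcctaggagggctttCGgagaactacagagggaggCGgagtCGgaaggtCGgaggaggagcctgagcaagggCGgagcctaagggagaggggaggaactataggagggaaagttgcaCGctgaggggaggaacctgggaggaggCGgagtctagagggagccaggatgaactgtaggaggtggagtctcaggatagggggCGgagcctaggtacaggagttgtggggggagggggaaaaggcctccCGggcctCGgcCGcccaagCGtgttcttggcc
Phlda2, chr7:143502475-143502774, minus strand: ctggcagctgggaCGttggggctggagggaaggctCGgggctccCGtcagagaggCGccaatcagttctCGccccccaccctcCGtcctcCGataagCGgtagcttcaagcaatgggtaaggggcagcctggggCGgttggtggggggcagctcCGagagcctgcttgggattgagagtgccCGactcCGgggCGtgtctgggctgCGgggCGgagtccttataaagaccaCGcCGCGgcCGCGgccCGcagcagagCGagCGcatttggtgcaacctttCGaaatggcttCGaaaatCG
Their windows held 9 CpG (Dlk1), 15 (Inpp5f) and 26 (Phlda2). The CpG counts did not sort by direction: the window of Ascl2, which fell, held 23, and among genes that rose Rian held 0 and Kcnq1ot1 9. A match to a motif describes the sequence and is no evidence of binding.

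Levels can be compared between genes per length, as the mean normalised count per kb of exon over all 6 libraries. Of the 31 genes, 20 lay above the median of all genes, 31.6 per kb, and 6 lay above the 90th percentile. H19, a non-coding RNA of the Igf2 domain, was highest at 1556 per kb, followed by Igf2r at 999 and Gnas at 616 per kb. Copg2 (475), Grb10 (465) and Impact (442 per kb) lay close together below them. Lowest were Rasgrf1 at 2.54 per kb, Nap1l5 at 3.24 and Zim1 at 5.80 per kb. Kcnq1ot1 had 7.89 per kb, a low value beside its mean normalised count of 735 because its annotated exon spans 93092 bases. These are means over both populations, and without values per library the spread around each, and whether neighbours in this order differ beyond it, is unknown.

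**Figure D2:**
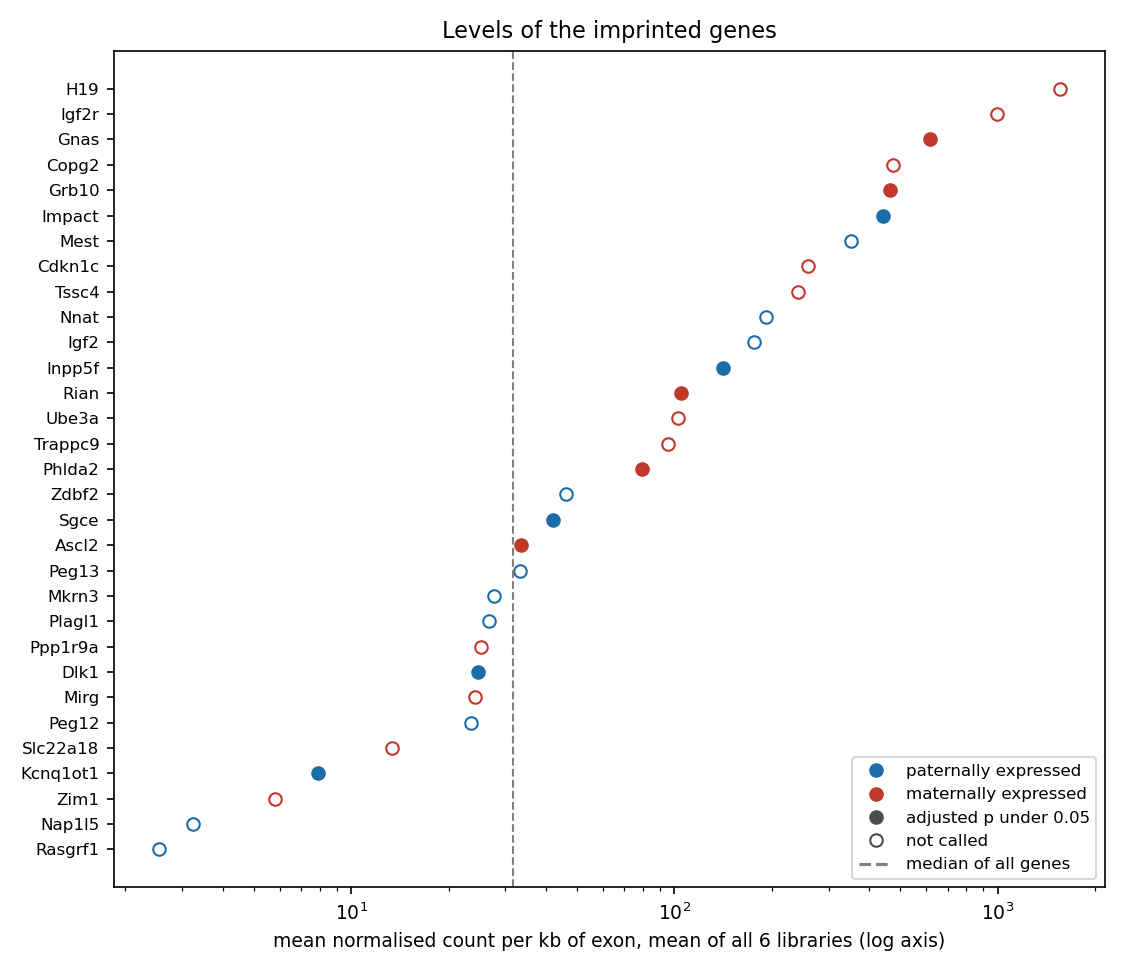
Level of each of the 31 imprinted genes as mean normalised count per kb of exon, averaged over all 6 libraries (log axis). Blue marks paternally and red maternally expressed genes, filled points are called, and the dashed line is the median of all genes at 31.6. H19 and Igf2r, neither of them called, lie at the top.

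The Dlk1-Meg3 cluster on chromosome 12 showed the widest split. Dlk1, a transmembrane relative of Notch ligands that is made in embryonic tissues and restrains adipocyte differentiation, fell by 1.55 ± 0.26 in CDH1+/THY1+ cells in the authors' deposited table (adjusted p = 3.52e-08), a 2.94-fold lower level. It is expressed from the paternal copy and lies at 109452823 to 109463336 on the plus strand (GRCm38). Rian, a maternally expressed RNA that hosts small nucleolar RNAs (109603940 to 109661716, plus strand), rose by 0.77 ± 0.31 in the authors' deposited table (adjusted p = 0.0405). Its exons overlap those of 9 annotated small RNA or other non-coding genes on the same strand, so reads between them could have been assigned in several ways. Mirg, the maternally expressed microRNA host at the end of the same transcribed stretch, had 0.70 ± 0.35 without a call in the authors' deposited table (adjusted p = 0.105). The intervals of Dlk1 (-2.06 to -1.05) and Rian (0.16 to 1.39) lie on opposite sides of 0.

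Other imprinted genes at the ends of this domain were also split. Begain, the gene upstream of Dlk1, fell by 1.04 ± 0.29 in the authors' deposited table (adjusted p = 0.00216). Dio3, an enzyme gene that inactivates thyroid hormone, at the far end, had 1.35 ± 0.54 in the authors' deposited table (adjusted p = 0.037) at a mean normalised count of only 41.2. Between them, 18 microRNA genes had a row in the authors' deposited table, with mean normalised counts of 0.97 to 2.55. Only 1 of them had an adjusted p-value, and 0 were called. Such counts say nothing of mature microRNAs.

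The Kcnq1ot1 cluster at the distal end of chromosome 7 held 6 genes, more than any other cluster of the list. Kcnq1ot1, the paternally expressed antisense RNA that silences the domain in cis (143203458 to 143296549, minus strand), rose by 0.57 ± 0.20 in the authors' deposited table (adjusted p = 0.0168). It overlaps exons of Kcnq1 on the other strand, and the counting setting for strand is not given in the sources used here. Phlda2, a maternally expressed brake on placental growth (143501545 to 143503150), rose by 1.35 ± 0.42 in the authors' deposited table (adjusted p = 0.00584), a 2.55-fold higher level at a mean normalised count of 88.9. Ascl2, a maternally expressed transcription factor gene of the trophoblast (142966829 to 142969264), fell by 0.91 ± 0.33 in the authors' deposited table (adjusted p = 0.0221) at a mean count of 54.2. None of these 3 calls held after the Benjamini-Yekutieli adjustment, with adjusted p-values of 0.222 for Kcnq1ot1, 0.0793 for Phlda2 and 0.291 for Ascl2.

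The other 3 genes of the cluster were not called. Cdkn1c, the cell cycle inhibitor p57, had -0.03 ± 0.56 in the authors' deposited table (adjusted p = 0.975). Its interval ran from -1.12 to 1.06, so a 2-fold change in either direction lies within it. Tssc4 had -0.09 ± 0.15 in the authors' deposited table (adjusted p = 0.683), with an interval of -0.37 to 0.20, and the organic cation transporter gene Slc22a18 had 0.71 ± 0.44 (adjusted p = 0.206). Imprinted genes around this core moved in both directions in the authors' deposited table. There the tetraspanin gene Cd81 rose by 0.70 ± 0.16 (adjusted p = 0.00014), and the decoy receptor gene Tnfrsf22 by 1.64 ± 0.34 (adjusted p = 1.14e-05). Tspan32, another tetraspanin gene, was also called higher (adjusted p = 0.0471), at a mean count of 4.97. The lipid-binding gene Osbpl5 rose by 0.54 ± 0.21 in the authors' deposited table (adjusted p = 0.0321), and Cars, a transfer RNA synthetase gene next to the cluster, by 0.82 ± 0.22 (adjusted p = 0.000932). The histone chaperone gene Nap1l4 fell by 0.55 ± 0.13 (adjusted p = 0.00016) and Dhcr7, of cholesterol synthesis, fell by 0.92 ± 0.17 in the authors' deposited table (adjusted p = 1.3e-06).

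The Igf2 pathway holds a growth factor and its opponents. Igf2, the paternally expressed fetal growth factor, had 0.79 ± 0.51 and was not called in the authors' deposited table (adjusted p = 0.234). Its standard error was larger than that of 99.5% of the 200 genes of nearest mean count, and its interval ran from -0.21 to 1.80. H19, the maternally expressed RNA of the same domain on chromosome 7, had -0.09 ± 0.24 in the authors' deposited table (adjusted p = 0.822). Igf2r, the maternally expressed receptor that takes IGF2 to lysosomes, had -0.16 ± 0.14 in the authors' deposited table (adjusted p = 0.409), with a narrow interval of -0.44 to 0.12. Grb10, an adaptor protein gene that dampens insulin and IGF receptor signalling (chromosome 11, 11930508 to 12038683), rose by 0.64 ± 0.26 in the authors' deposited table (adjusted p = 0.0417). Ddc, the decarboxylase gene beside Grb10, rose by 1.31 ± 0.44 in the authors' deposited table (adjusted p = 0.0116). Plagl1, a zinc finger factor known to act on other imprinted genes, had -0.14 ± 0.25 in the authors' deposited table (adjusted p = 0.702). The call of Grb10 did not hold after the Benjamini-Yekutieli adjustment (adjusted p = 0.543).

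Genes of IGF signalling outside the imprinted list moved in both directions. Of 17 genes with a row from a list of 18, 7 rose and 2 fell, with a median of 0.58. That is 52.9% called, beside 33.5% of all genes. The IGF binding protein gene Igfbp2 rose by 1.56 ± 0.25 (adjusted p = 7.84e-09), and the RNA-binding protein gene Igf2bp2 by 0.90 ± 0.19 in the authors' deposited table (adjusted p = 1.63e-05). Igfbp6, a binding protein gene with a preference for IGF2, fell by 1.60 ± 0.35 (adjusted p = 4.06e-05). Igf1r, the receptor through which IGF2 signals, fell by 0.78 ± 0.17 in the authors' deposited table (adjusted p = 5.84e-05), and Igf1, the ligand gene, rose by 1.05 ± 0.31 (adjusted p = 0.00273). The insulin receptor gene Insr had 0.29 ± 0.14 (adjusted p = 0.105). Of these 17 genes 10 had standard errors above the 90th percentile for their mean count, and 10 of the 30 fibroblast markers described further on rose in the same comparison, with 20 not called. Their part in the result was not tested.

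Sgce had the highest fold change of the set. It encodes epsilon-sarcoglycan, a membrane protein, is expressed from the paternal copy and lies on chromosome 6 (4674350 to 4747207, minus strand). It rose by 1.45 ± 0.23 in the authors' deposited table (adjusted p = 9.32e-09), a 2.73-fold higher level at a mean normalised count of 447. Ppp1r9a, the actin-binding neurabin gene of the same cluster, had 0.09 ± 0.27 in the authors' deposited table (adjusted p = 0.845). Casd1, a sialic acid acetyltransferase gene beside Sgce, rose by 1.30 ± 0.32 in the authors' deposited table (adjusted p = 0.000277). Tfpi2, a protease inhibitor gene of the region, rose by 2.04 ± 0.62 in the authors' deposited table (adjusted p = 0.00498) at a mean count of 6.76. Asb4, also of the region, had -0.21 ± 0.64 without a call in the authors' deposited table (adjusted p = 0.843). The collagen gene Col1a2 lies in the same stretch and is a fibroblast marker. It had 1.19 ± 0.59 without a call in the authors' deposited table (adjusted p = 0.103).

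Genes that stand alone or as pairs included the remaining calls. Impact, a regulator of the amino acid stress kinase GCN2 (chromosome 18, 12955852 to 12992950), rose by 0.87 ± 0.18 in the authors' deposited table (adjusted p = 9.97e-06). Gnas, the stimulatory G protein alpha subunit locus (chromosome 2, 174284320 to 174346744), rose by 0.66 ± 0.21 in the authors' deposited table (adjusted p = 0.00629). That locus makes several transcripts imprinted in different ways, which 1 value per gene does not separate, and its exons overlap the antisense RNA Nespas, at 0.55 ± 0.35 in the authors' deposited table (adjusted p = 0.227). Inpp5f, a phosphoinositide phosphatase gene with an imprinted alternative transcript (chromosome 7, 128611328 to 128696425), fell by 0.82 ± 0.17 in the authors' deposited table (adjusted p = 1.68e-05). Its value is that of the whole gene, including the transcripts that are not imprinted.

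The other genes had no call. In the authors' deposited table the hydrolase-like gene Mest had 0.23 ± 0.27 (adjusted p = 0.552), and Copg2, a coat protein gene whose exons overlap Mest on the other strand, had -0.33 ± 0.16 (adjusted p = 0.11). The ubiquitin ligase gene Ube3a, imprinted in neurons, had 0.20 ± 0.13 in the authors' deposited table (adjusted p = 0.242), and in the same cluster Mkrn3 had 0.06 ± 0.30 and Peg12 0.81 ± 0.39 (adjusted p = 0.905 and 0.0963). Peg13 and Trappc9, a non-coding RNA and the trafficking gene that contains it, had 0.17 ± 0.21 and 0.13 ± 0.17 in the authors' deposited table. Zdbf2 had 0.81 ± 0.37 (adjusted p = 0.0701) and the proteolipid gene Nnat -0.68 ± 0.43 in the authors' deposited table (adjusted p = 0.22). Rasgrf1, a Ras exchange factor gene, had -1.02 ± 0.51 (adjusted p = 0.104), Zim1 0.20 ± 0.35 (adjusted p = 0.702) and Nap1l5 -0.01 ± 0.63 in the authors' deposited table (adjusted p = 0.994). Nap1l5 had a mean normalised count of only 5.97.

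Of the 21 genes not called, 12 had intervals that lay within a 2-fold change in either direction, among them H19, Igf2r, Mest, Ube3a and Tssc4. The other 9, among them Igf2, Cdkn1c, Nnat and Rasgrf1, had wider intervals, and a missing call does not show that their levels were alike. Mirg, Peg12, Zdbf2, Copg2 and Rasgrf1 had an unadjusted p under 0.05 without a call.

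Standard errors were large for their levels mainly among imprinted genes whose exons overlap another gene. In 9 of the 31 genes (29.0%) the standard error was above the 90th percentile of the 200 genes of nearest mean count, beside 9.91% of all genes, and the median percentile was 77.0. The genes were Igf2 (99.5), Cdkn1c (99.0), Nnat (99.0), Rian (98.0), Zdbf2 (97.0), Grb10 (96.5), Mest (94.5), H19 (93.5) and Mirg (93.5). Rian and Grb10 are the only called genes among them. Of the 15 imprinted genes whose exons overlap another gene, 8 were above that percentile (53.3%, median percentile 93.5). Of the 16 without overlap 1 was, Grb10 (6.25%, median percentile 64.5). The part of exon overlap in this was not tested. At the other end stood Tssc4 (0.0), Peg13 (8.0), Ube3a (15.5) and Igf2r (19.0). A standard error that is large at a given mean count goes with more spread between libraries. Which libraries differ is not given, since the table has no values per library. Of the fibroblast marker genes, 17 of 30 (56.7%) were above the same percentile, and of the germ cell genes 6 of 20 (30.0%). Whether the fibroblast markers vary in the same libraries was not tested.

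**Figure D3:**
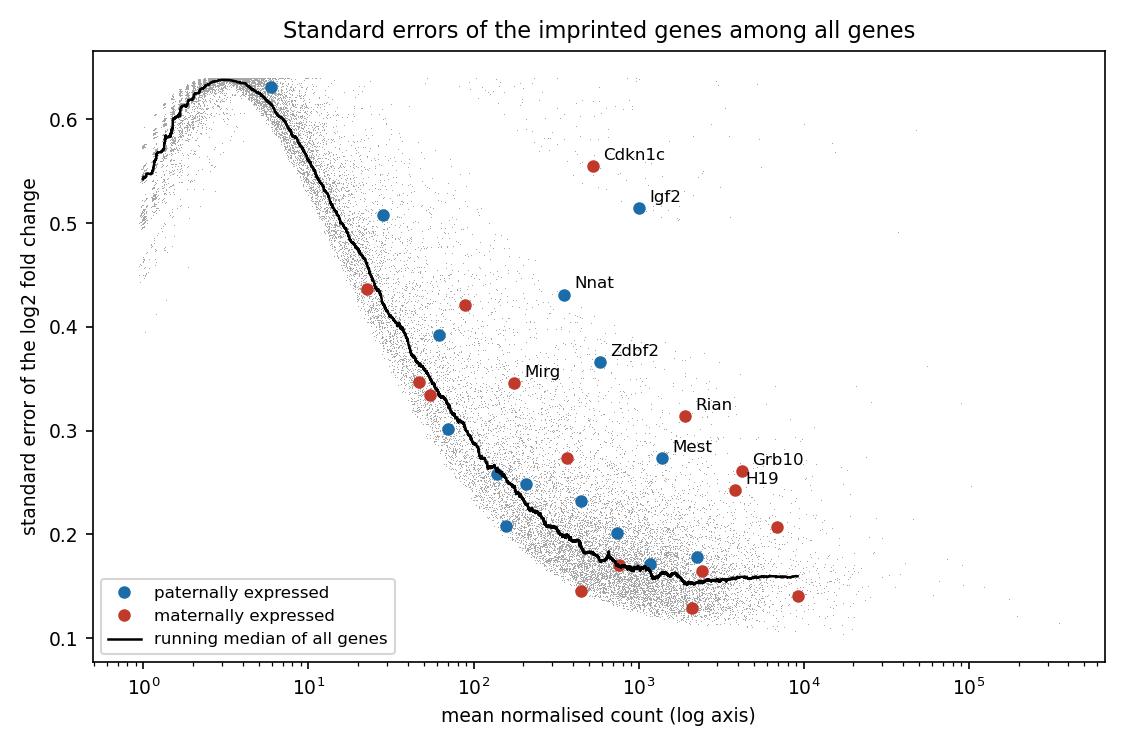
Standard error of the log2 fold change against the mean normalised count (log axis) for all genes with a p-value (grey) and the imprinted genes (blue paternally, red maternally expressed). The black line is the running median of all genes, and the 9 named genes lie above the 90th percentile for their mean count, with Cdkn1c and Igf2 farthest above the line.

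Genes next to the clusters were examined within 250 kb on either side of each cluster's span, with the genes of both imprinted lists left aside. They still include transcripts of imprinted domains, among them the 18 microRNA genes of the Dlk1-Meg3 domain and Igf2os. They numbered 144, of which 101 had an adjusted p-value. Of those tested, 15 were higher and 6 lower in the authors' deposited table (20.8% called, beside 33.5% of all genes). The median log2 fold change of the 144 was 0.23, beside 0.17 for the imprinted genes, with 93 above 0 and 51 below. Their median mean count was 10.6, beside 447 for the imprinted genes, so the shares called are not on an equal footing. Next to Inpp5f, of 9 tested neighbours 3 fell as Inpp5f did and 6 were not called (33.3% called, beside 33.5% of all genes). In the authors' deposited table Sec23ip had -0.62 ± 0.15 (adjusted p = 0.000288), Mcmbp -0.51 ± 0.14 (adjusted p = 0.000996) and Rgs10 -0.62 ± 0.21 (adjusted p = 0.0142). Next to Impact, the lipid-binding gene Osbpl1a rose by 0.71 ± 0.15, the 1 called of 2 tested neighbours. Next to Gnas the SNARE gene Stx16 rose by 0.78 ± 0.14 in the authors' deposited table, the 1 called of 10 tested neighbours. Next to Zdbf2, the surface protein gene Adam23 rose by 1.72 ± 0.22 in the authors' deposited table (adjusted p = 4.42e-13). It was 1 of 3 called, all higher, of 9 tested neighbours. Ago2, beside Peg13, rose by 1.34 ± 0.20, the 1 called of 2 tested neighbours. Pnldc1, a piRNA trimming enzyme gene beside Igf2r, fell by 1.33 ± 0.23 in the authors' deposited table. Of 10 tested neighbours of Igf2r it was the 1 that fell, and 2 rose, Mrpl18 by 0.46 ± 0.19 and Sod2 by 0.45 ± 0.18. Peg13, Trappc9 and Igf2r were not called. Next to Nap1l5, its host gene Herc3 fell by 0.72 ± 0.22 in the authors' deposited table (adjusted p = 0.0048), the 1 called of 2 tested neighbours. Next to Igf2 and H19, neither of them called, 3 of 7 tested neighbours rose. These were Lsp1 at 1.83 ± 0.62, Tnnt3 at 1.79 ± 0.63 and Tnni2 at 1.52 ± 0.56 in the authors' deposited table. Tnnt3 and Tnni2 had mean counts of only 5.54 and 10.9.

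**Figure D4:**
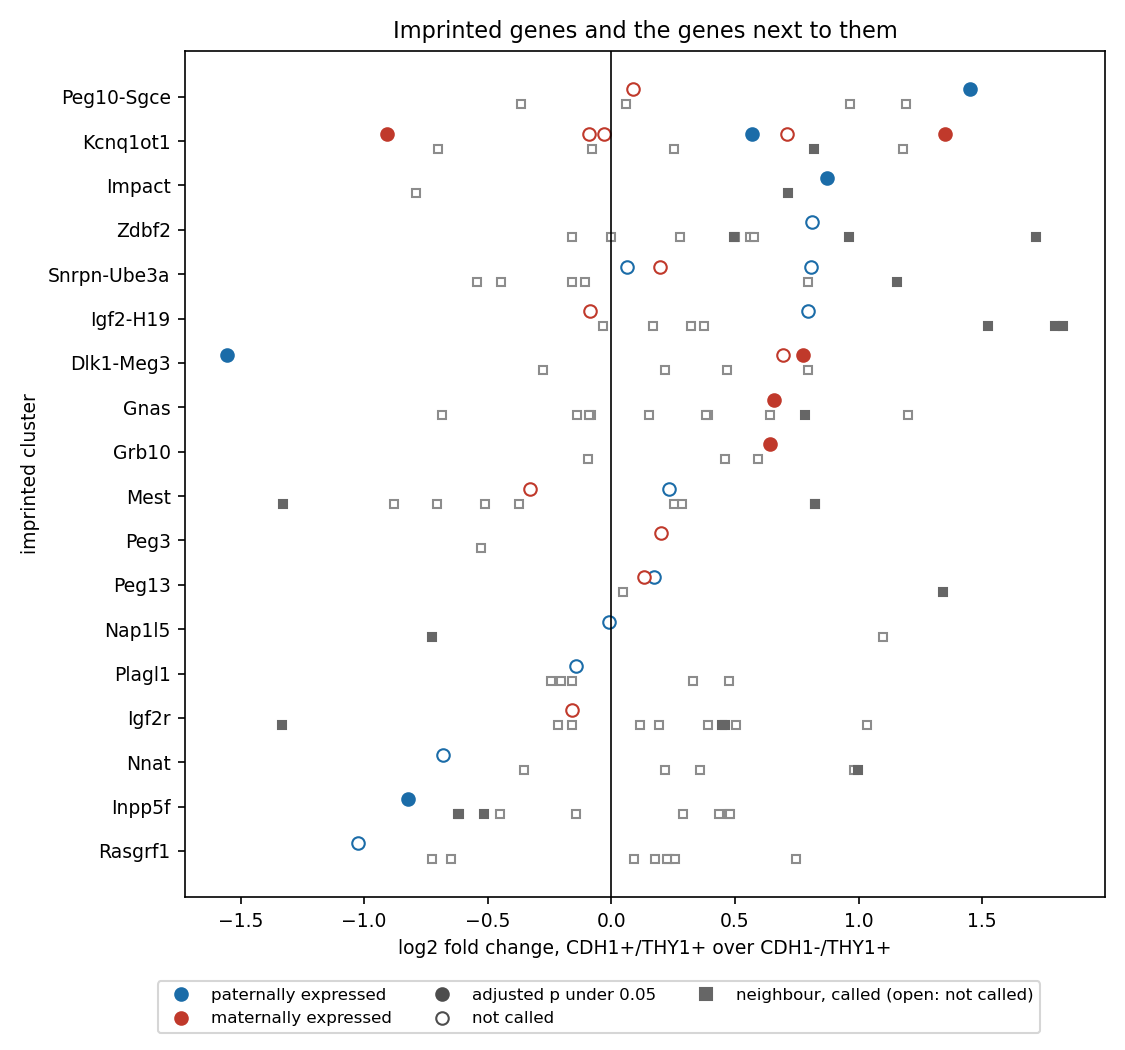
Log2 fold change of the imprinted genes (circles, blue paternally and red maternally expressed) and of tested genes within 250 kb (grey squares) for each of the 18 clusters. Filled symbols are called. Of 9 tested neighbours of Inpp5f, the 3 called lie below 0 with Inpp5f and 6 were not called. Called neighbours beside imprinted genes without a call lie in the clusters Peg13, Igf2r, Igf2-H19, Zdbf2, Mest, Nap1l5, Nnat and Snrpn-Ube3a.

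A second list of 49 other imprinted genes gave 44 with a row. Of 42 tested, 10 were higher and 8 lower in the authors' deposited table (42.9%, beside 33.5% of all genes), with a median of 0.34. The lower ones with the largest test statistics at a mean count of at least 100 were the transcription factor gene Glis3 at -1.50 ± 0.23 (adjusted p = 1.92e-09) and the matrix gene Smoc1 at -1.48 ± 0.25 in the authors' deposited table (adjusted p = 7.63e-08), beside Dhcr7. In the Peg3 region, whose member Zim1 was not called, Zim2 had -1.98 ± 0.38 (adjusted p = 2.43e-06) and Zfp264 -1.12 ± 0.28 in the authors' deposited table (adjusted p = 0.000349).

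Genes that write, keep or erase imprints moved in both directions. Of 20 genes with a row from a list of 24, 19 were tested, and 5 were higher and 7 lower in the authors' deposited table, with a median of -0.21. That is 63.2% called, beside 33.5% of all genes. Zfp57, Dnmt3l, Tet1 and Tet2 were not analysed here. Kdm1b, a histone demethylase known to be needed for imprints in mouse oocytes, fell by 1.32 ± 0.17 (adjusted p = 7.6e-14), and the histone methyltransferase gene Ehmt2 fell by 0.84 ± 0.16 in the authors' deposited table (adjusted p = 2.01e-06). Dnmt3a, which methylates DNA anew in germ cells, fell by 0.65 ± 0.14 in the authors' deposited table (adjusted p = 4.2e-05). Dnmt1, which copies methylation at division, had -0.33 ± 0.16 (adjusted p = 0.0902), and Trim28, the corepressor recruited by ZFP57, 0.45 ± 0.21 in the authors' deposited table (adjusted p = 0.0845). Zfp445, a zinc finger factor that maintains imprints, rose by 1.04 ± 0.16 (adjusted p = 3.35e-09), and Ctcf, the insulator protein gene of the Igf2-H19 domain, by 0.90 ± 0.19 in the authors' deposited table (adjusted p = 1.49e-05).

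Markers of cell types that the sorted samples could hold stood as follows beside these results. Fibroblast genes were abundant, with a median of 1127 mean normalised counts per kb over all 30 markers, and all of them had a row. Of the 30, 10 rose and 0 fell in the authors' deposited table, with a median of 0.67, among them Ccn1 at 1.21 ± 0.16 and Cald1 at 1.21 ± 0.17 in the authors' deposited table. The median level of the 20 germ cell markers was 528 per kb. Of them 17 fell and 0 rose (85.0% called, beside 33.5% of all genes), with a median of -1.49. Those that fell included the piRNA pathway genes Mov10l1 at -1.84 ± 0.16 and Tdrd1 at -2.22 ± 0.20 in the authors' deposited table. All 6 pluripotency genes with a row, of 12 listed, rose, with a median of 1.60. Of 7 tested Sertoli cell genes 2 rose and 0 fell (28.6% called, beside 33.5% of all genes), with a median of 0.84. Levels of these markers in each population are not given by the table. The imprinted genes had a median of 0.17 and a range of -1.55 to 1.45. The part of the feeder cells or of the germ cell share in any single imprinted gene was not tested.

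**Figure D5:**
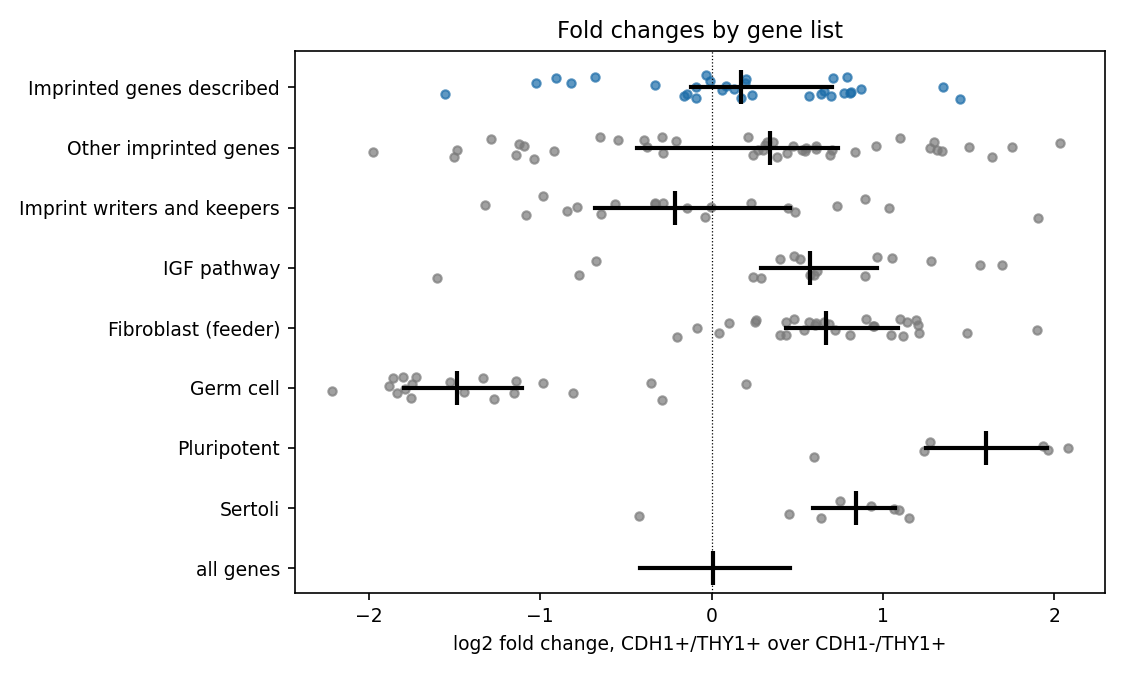
Fold changes on the log2 scale, positive where CDH1+/THY1+ cells were higher, of the 31 imprinted genes (blue) and of the other gene lists (grey), with the median (vertical bar) and the quartiles (horizontal bar). All genes are shown by median and quartiles only. The imprinted genes spread on both sides of 0 around 0.17, while germ cell markers lie around -1.49 and fibroblast markers around 0.67.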

How the data were processed

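RNA of 6 samples was sequenced from total RNA after ribosomal RNA depletion, with stranded libraries, per the labels' protocols. The submitters' processing notes name DESeq2 1.12.3, R 3.3.1, featureCounts, Subread 1.5.0-p3, TopHat2 2.1.1, Trimmomatic 0.32 and the build GRCm38.p4. The annotation release, the strand setting and the model formula are not given in the sources used here. The authors deposited 1 table of their comparison. As deposited by the authors, the mean normalised count is a signal value averaged over the 6 libraries. Fold changes and standard errors are on a log2 scale, as the authors deposited them. The deposited Wald statistic is a score, and the deposited p-value comes with an adjusted one. Adjusted p was empty in 3221 rows.

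Identifiers without version were matched to GENCODE M21 (GRCm38), with a symbol for 22317 rows. Exon length is the union of exons. Calls are the authors'. Benjamini-Yekutieli and Benjamini-Hochberg adjustments were recomputed over all rows with a p-value with statsmodels 0.14.6 under Python 3.11.15, after tests on simulated data. Each standard error was ranked against the 200 genes closest in mean count. The members and lists were chosen with earlier results of these data known, and the classes by germ line of methylation were added after the values were seen. All members are named. Of each other list the 3 called genes with the largest statistic at a mean count of at least 100 are named, and genes that share a cluster, ligand or receptor with a called member. Zim2, Zfp264, Herc3, Lsp1, Tnnt3, Tnni2, Mrpl18, Sod2, Dnmt1, Dnmt3a, Trim28 and Ctcf were named after their values were seen. P-values are those of the authors' fit to 3 samples a population, and whether it took the culture into account is not given. The 3 cultures differ in their age or strain labels, and each gave a sample of both populations. Alternatives were a stricter threshold, a 2-fold minimum, a mean count of at least 100, and leaving out genes with large standard errors, overlapping exons or tissue-limited imprinting, and each cluster in turn.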

Additional observations from a re-analysis of the deposited data

How the results depend on the processing

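In CDH1+/THY1+ cells 7 imprinted genes were called higher and 3 lower. The Benjamini-Yekutieli adjustment left 2 higher genes and 2 lower, an adjusted p under 0.01 left 4 and 2, and a change of at least 2-fold left 2 and 1. Over all genes the same settings left 1666 higher and 1967 lower, 2107 and 2313, and 1435 and 1256, against 3292 and 3146. Without filtering on low counts, with a mean count of at least 100, or without the genes of the largest standard errors, the counts were 5 to 6 higher and 2 to 3 lower. Over all genes these settings left, in that order, 3133 higher and 3026 lower, 2521 and 2414, and 2718 and 3022. The median of the 31 genes stayed between 0.15 and 0.20 when any cluster was left out and was 0.11 without the genes of the largest standard errors. The median of maternally expressed genes was 0.16, and 0.45 without the 8 whose imprinting is limited to few tissues, which left 8 genes; the cause was not tested. No paired analysis was possible because the table holds no values per library, although both populations came from the same 3 cultures. For the same reason no replicate was left out. The depth per sample is not given, and low mean counts limit Nap1l5, Slc22a18 and Rasgrf1.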
